A study of Saccharomyces cerevisiae with 4 samples.

Results

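The COS and PAU genes of budding yeast are 2 multicopy families found mainly near chromosome ends, and the rows named COS or PAU followed by a number were taken from the deposited tables by their standard names in the RefSeq annotation of genome build R64. This gave 36 of 6459 rows, 12 named COS and 24 named PAU. RNA was sequenced from Saccharomyces cerevisiae BY4741 carrying HIS3::ADH1-OsTIR19Myc, which places the plant auxin receptor at HIS3 under ADH1, and ESS1-AID, in which the prolyl isomerase Ess1 bears an auxin-inducible degron with 6Flag and the marker hphB. Cultures in YPD at mid-log phase received 2 mM indole-3-acetic acid (IAA, an auxin) or the solvent DMSO for 3 h, with 2 biological replicates each, in a study that its title ties to telomeric repeat RNA and telomere replication. Both groups carried the degron and the receptor, so an effect of IAA itself cannot be told apart from loss of Ess1, and Ess1 protein was not measured here.

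Genes close to telomeres are subject to transcriptional silencing by proteins that spread from the chromosome end, and many of them belong to families whose copies exchange sequence and stay nearly identical. COS genes encode endosomal membrane proteins that supply ubiquitin in trans, so that plasma membrane proteins without their own ubiquitin are sorted into multivesicular bodies and broken down. PAU genes encode seripauperins, small mannoproteins related to the DAN and TIR cell wall proteins, and they are known for repression by oxygen and heme and for induction under anaerobic growth and alcoholic fermentation.

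Estimated counts summed to 33589128 and 33625232 in the IAA libraries and 26046702 and 27609311 in the DMSO libraries. ESS1 mRNA, which the degron does not target, stood at 6.70 and 7.92 CPM (TMM-scaled reads per 1e6 reads) in IAA, against 5.15 and 5.31 CPM in DMSO, a log2 fold change of 0.48 (SE 0.127, adjusted p = 0.0109). Of genes deleted in BY4741, LEU2, URA3 and MET17 had no read in any library. MATa genes STE2, STE6 and BAR1 lay between 103 and 400.1 CPM over the 4 libraries, while the short MFA1 and MFA2 did not exceed 0.806 CPM. Among the MATalpha genes STE3, MF(ALPHA)1, MF(ALPHA)2 and SAG1, SAG1 was the highest, at 39.0 to 46.3 CPM.

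The COS name covers 11 genes of the family and 1 gene that shares only the name. COS1 to COS10 and COS12 have coding sequences of 1125 to 1224 bases and lie within 14484 bp of a chromosome end. COS111 lies 181242 bp from the end of chromosome II, has a coding sequence of 2775 bases and is annotated as required for resistance to the antifungal drug ciclopirox olamine and as unrelated to the family. Its best coding identity to another COS row was 31.9% in a global alignment, against at least 61.0% for each of the others. Unmatched length counts as difference in such an alignment, so the greater length of COS111 itself lowers its value, which does not by itself show that it is unrelated. Values are therefore given for the 12 rows and for the 11 genes of the family.

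How far each row can be measured alone depends on its sequence. RSEM, which the submitters' notes name, divides reads that match several genes, and rows with a decimal in any library were marked as sharing reads. These were 7 of the 12 COS rows (COS1 to COS7) and 14 of the 24 PAU rows. A row with few or no reads can have whole counts whatever its sequence. PAU9, PAU16 and PAU19 had whole counts though they share stretches with other PAU rows, so whole counts alone do not make a row separable. COS1 to COS7 are linked by stretches of 100 identical bases, a length set here, with the study's own read length unknown. COS2 (chromosome II) and COS3 (chromosome XIII) have the same coding sequence, and the identity goes on for 1671 bases upstream of the start codon and 53 bases downstream of the stop codon, so no read inside these genes tells them apart. COS8, COS9, COS10 and COS12 had whole counts in every library, with nearest identities of 61.0% to 86.7%. In the PAU family 3 pairs had the same coding sequence, PAU1 with PAU14, PAU6 with PAU18 and PAU21 with PAU22.

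The first 3 promoters below show how alike COS2 and COS6 are upstream (88.7% identity) and how a PAU promoter differs from them. Each holds 250 bases before the start codon and the first 50 bases of the coding sequence, read from build R64 (RefSeq), 5′ to 3′. Capitals mark matches, on either strand, to ATTGTT, the core bound by the hypoxic repressor Rox1, and to TCGTATA and TCGTTTA, forms of the sterol and anaerobic response elements bound by Upc2. The last 2 motifs differ in 1 letter, so that they cannot match at the same place.
COS2 (chrII:811430-811729, minus strand), with the same 300 bases at COS3 (chrXIII:6994-7293, plus strand): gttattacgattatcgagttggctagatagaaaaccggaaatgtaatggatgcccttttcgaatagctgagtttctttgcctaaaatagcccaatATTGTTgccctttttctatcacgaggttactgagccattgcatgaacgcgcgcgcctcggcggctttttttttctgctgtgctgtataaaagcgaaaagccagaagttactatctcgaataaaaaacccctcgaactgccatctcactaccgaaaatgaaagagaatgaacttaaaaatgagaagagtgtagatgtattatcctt
COS6 (chrVII:1082680-1082979, minus strand), the COS row with the most reads: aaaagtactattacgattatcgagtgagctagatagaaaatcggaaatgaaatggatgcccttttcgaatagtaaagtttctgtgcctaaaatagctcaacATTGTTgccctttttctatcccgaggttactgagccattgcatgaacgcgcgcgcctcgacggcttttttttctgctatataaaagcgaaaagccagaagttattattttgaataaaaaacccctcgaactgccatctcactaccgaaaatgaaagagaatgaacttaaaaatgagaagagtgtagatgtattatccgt
PAU18 (chrXII:13396-13695, minus strand), 1 of the 2 PAU rows with the most reads: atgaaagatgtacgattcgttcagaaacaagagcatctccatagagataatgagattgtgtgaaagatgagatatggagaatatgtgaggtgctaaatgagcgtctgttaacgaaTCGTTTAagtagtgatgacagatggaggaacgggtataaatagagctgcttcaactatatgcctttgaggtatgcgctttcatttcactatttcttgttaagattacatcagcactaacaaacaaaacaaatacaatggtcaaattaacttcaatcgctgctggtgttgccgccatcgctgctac

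The PAU promoters held TCGTTTA more often than all promoters did, which is a description of copied sequence with no test. It was found in 16 of 24 PAU promoters (66.7%), in 0 of 12 COS promoters and in 329 of 6001 promoters of all nuclear coding genes (5.48%). In 12 of the 16 it began 134 or 135 bases before the start codon on the coding strand, as in PAU18 above. TCGTATA was found in 1 PAU promoter, that of PAU2, and in 1 COS promoter, that of COS9, against 4.15% of all promoters. ATTGTT was found in 10 of 12 COS promoters (83.3%), in 6 of 24 PAU promoters (25.0%) and in 35.2% of all promoters. The match of COS111 lay inside its coding sequence, and without COS111 the count was 9 of 11 (81.8%). In COS1 to COS8 it began 149 to 155 bases before the start codon, and the upstream 250 bases of COS1, COS2, COS3, COS5 and COS8 were 98.4% to 100% identical, so these are copies of 1 promoter and not separate occurrences. A match shows only that the letters are there.

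At the level of whole families, both sums were higher in IAA. The 11 COS genes together had 696 and 709 CPM in the IAA libraries, against 520.1 and 517 CPM in the DMSO libraries. The sum rose 1.35-fold (log2 fold change 0.44, SE 0.0398, adjusted p = 6.77e-05 by edgeR's quasi-likelihood test with Benjamini-Hochberg adjustment, as for all adjusted p below). With COS111 included, the sum of 12 rows had 735 and 753 CPM in IAA, against 543 and 545 CPM in DMSO (log2 fold change 0.45, SE 0.0400, adjusted p = 6.03e-05). The 24 PAU rows together had 15.7 and 14.3 CPM in IAA, against 9.66 and 9.92 CPM in DMSO (log2 fold change 0.62, SE 0.0870, adjusted p = 5.15e-04). In all 3 sums both IAA libraries lay above both DMSO libraries, as they did for 40.2% of all tested genes. The sum of 12 COS rows contains that of the 11 genes, so these are not 3 separate cases. COS rows took 0.0706% and 0.0729% of the reads in IAA, against 0.0563% and 0.0565% in DMSO, and PAU rows took 0.00151% and 0.00139% in IAA, against 0.00100% and 0.00103% in DMSO. In these bulk samples, a change in a part of the cells and a change in every cell cannot be told apart.

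The COS increase was not confined to the rows whose reads are shared, though these rows held most of the added CPM. The 4 family genes with whole counts, COS8, COS9, COS10 and COS12, summed to 116 and 131 CPM in IAA, against 97.5 and 101 CPM in DMSO, a 1.24-fold difference (log2 fold change 0.31, SE 0.0615, adjusted p = 0.00272). The linked COS1 to COS7 summed to 579 and 578 CPM in IAA, against 423 and 416 CPM in DMSO, a 1.38-fold difference (log2 fold change 0.47, SE 0.0398, adjusted p = 5.59e-05). Without COS6, the other 11 of the 12 rows still summed to 477 and 490.3 CPM in IAA, against 389 and 387 CPM in DMSO (log2 fold change 0.32, SE 0.0406, adjusted p = 3.14e-04). Whether the sums of shared and of whole-count rows differ in their change was not tested.

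All 12 COS rows passed the filter on low counts, and 8 of them rose and 0 fell, with 7 and 0 among the 11 family genes. Of these 7, 5 were among COS1 to COS7, which share reads and so are not separate cases. The COS2 call rests on how reads identical to those of COS3 were divided. Over all 5799 tested genes 28.7% rose and 29.6% fell (58.3% in either direction), and the median log2 fold change was 0.00, against 0.44 over the 11 family genes. Both IAA libraries lay above both DMSO libraries in 8 of the 11 and below them in 1, against 40.2% above and 41.3% below over all tested genes. Levels per length spanned a wide range. In FPKM (length-scaled values deposited by the authors), COS6 was highest, at 274 ± 6.31 in IAA and 175 ± 4.02 in DMSO, and COS4 was lowest, at 1.85 ± 0.474 in IAA and 0.58 ± 0.113 in DMSO (mean ± SD, n = 2 each).

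**Figure D1:**
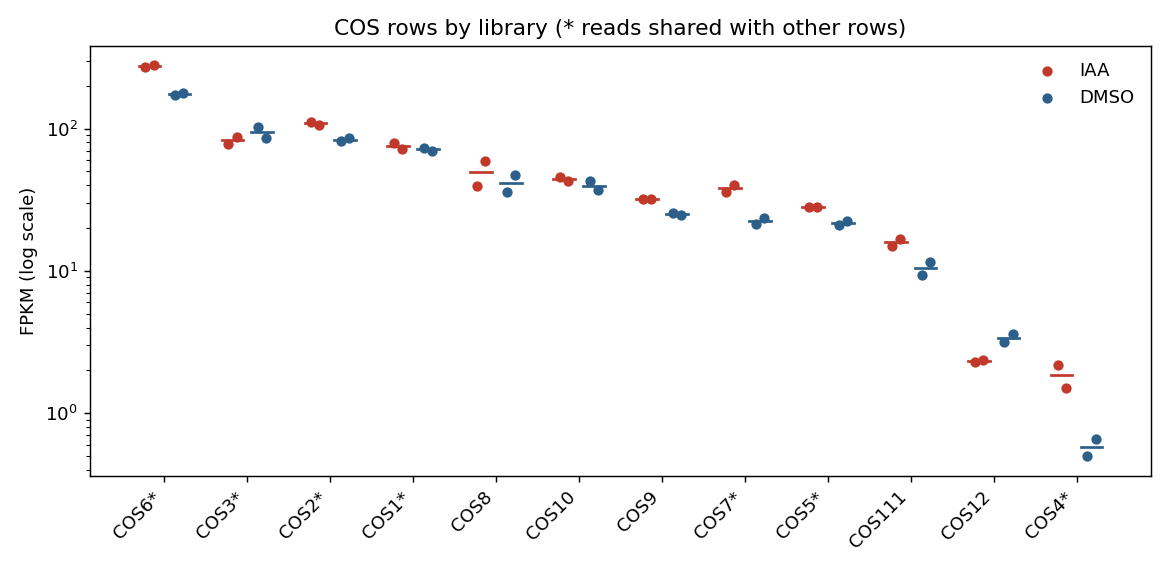
FPKM of the 12 COS rows on a log axis, ordered by their mean in DMSO. Points are libraries, bars are means of 2 libraries, IAA stands left of DMSO, and an asterisk marks rows that share reads; COS6, the row with the highest FPKM, had 269 and 278 in IAA, above the 172 and 177 in DMSO.

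COS6 carried much of the family's change. It had 258 and 263 CPM in IAA, against 154 and 159 CPM in DMSO (log2 fold change 0.74, SE 0.0430, adjusted p = 1.51e-05), and the IAA libraries stood well above both DMSO libraries. Its share of all COS reads was 35.1% and 34.9% in IAA, against 28.3% and 29.1% in DMSO. COS6 (chrVII:1081584-1082729, minus strand) shares stretches of 100 bases with COS1, COS4 and COS5, but 84.5% of its windows of 100 bases occur nowhere else in the genome.

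COS7 and COS5, each other's nearest relatives at 95.6% coding identity, also rose. COS7 had 34.7 and 38.5 CPM in IAA, against 19.2 and 21.1 CPM in DMSO (log2 fold change 0.86, SE 0.0773, adjusted p = 6.78e-05). COS5 had 27.2 and 26.7 CPM in IAA, against 18.9 and 20.04 CPM in DMSO (log2 fold change 0.47, SE 0.0645, adjusted p = 4.65e-04). Neither gene's groups overlapped, and 52.1% of the windows of COS7 and 42.4% of those of COS5 are unique. COS4 showed the highest fold among COS rows at the lowest level, 2.08 and 1.42 CPM in IAA against 0.448 and 0.588 CPM in DMSO (log2 fold change 1.73, SE 0.337, adjusted p = 0.00260). It rested on 67.04 and 46.26 reads in IAA and 12.10 and 16.82 reads in DMSO, and COS4 shares stretches of 100 bases with 6 other COS rows.

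The separate values of COS2 and COS3 rest on how identical reads were divided. COS2 had 107 and 99.2 CPM in IAA, against 72.4 and 76.7 CPM in DMSO, and was called higher (log2 fold change 0.46, SE 0.0547, adjusted p = 2.21e-04). COS3 had 74.3 and 81.9 CPM in IAA, against 91.9 and 76.7 CPM in DMSO, with overlapping groups and no call (log2 fold change -0.11, SE 0.0845, adjusted p = 0.292), though without DMSO replicate 2 it was called lower (-0.23, adjusted p = 0.0200). The share of the pair's reads given to COS2 was 58.9% and 54.8% in IAA, against 44.1% and 50% in DMSO, although the genes have the same coding sequence. Summed, the pair had 181 and 181 CPM in IAA, against 164 and 153 CPM in DMSO, a 1.14-fold difference (log2 fold change 0.19, SE 0.0483, adjusted p = 0.00989). This smaller rise is the value that the reads allow, and it was not called without DMSO replicate 2 (log2 fold change 0.14, adjusted p = 0.148) or with library size scaling (0.08, adjusted p = 0.174). COS1, 96.1% identical to COS2, had 76.2 and 67.6 CPM in IAA, against 65.9 and 62.1 CPM in DMSO, and was not called (log2 fold change 0.17, SE 0.0666, adjusted p = 0.0566). Single libraries moved COS1 both ways, to 0.26 without IAA replicate 2 (adjusted p = 0.00311), to 0.21 without DMSO replicate 1 (adjusted p = 0.0478) and to 0.079 without IAA replicate 1.

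**Figure D2:**
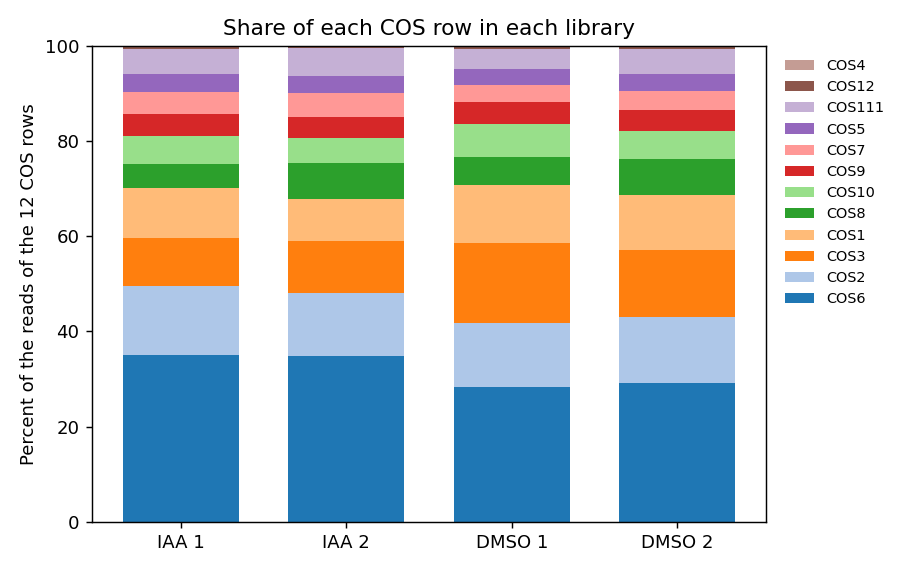
Percent of the reads of the 12 COS rows given to each row in each library (stacked bars, IAA left of DMSO). COS6 holds 34.9% to 35.1% of the reads in IAA and 28.3% to 29.1% in DMSO, and the COS3 segment, 10.1% and 10.9% in IAA, is larger in DMSO at 16.9% and 14.1%.

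Among the 4 family genes with whole counts the changes went both ways. COS9 had 33.1 and 33.03 CPM in IAA, against 24.8 and 23.9 CPM in DMSO (log2 fold change 0.44, SE 0.0595, adjusted p = 4.28e-04). COS10 had 43.0 and 39.6 CPM in IAA, against 37.5 and 32.1 CPM in DMSO (log2 fold change 0.25, SE 0.0830, adjusted p = 0.0316). Both were called, but COS10 lost its call with library size scaling (log2 fold change 0.14, adjusted p = 0.167), when IAA replicate 1 was dropped (adjusted p = 0.0836) and when DMSO replicate 2 was dropped (adjusted p = 0.224). COS8 had 38.1 and 55.9 CPM in IAA, against 32.4 and 42.2 CPM in DMSO, so its replicates spread widely and its groups overlapped (log2 fold change 0.33, SE 0.174, adjusted p = 0.132). Leaving out IAA replicate 1 gave it a call (log2 fold change 0.58, adjusted p = 7.23e-04), as did leaving out DMSO replicate 2 (0.54, adjusted p = 0.00363). The value was 0.037 when IAA replicate 2 was dropped (adjusted p = 0.808) and 0.15 when DMSO replicate 1 was dropped (adjusted p = 0.385), so the size of the COS8 difference depended on single libraries. COS12, the most diverged copy, had 2.20 and 2.24 CPM in IAA, against 2.81 and 3.21 CPM in DMSO. Its IAA values lay below those in DMSO, and the adjusted p was 0.0541 (log2 fold change -0.44, SE 0.172), or 0.0218 with library size scaling.

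COS111 (chrII:629168-631942), the unrelated gene, had 39.7 and 44.1 CPM in IAA, against 23.0 and 28.3 CPM in DMSO (log2 fold change 0.71, SE 0.0986, adjusted p = 5.08e-04). It thus rose as well, far from any chromosome end.

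Most PAU rows had almost no reads. Of 24 rows, 7 passed the filter on low counts, PAU2, PAU5, PAU6, PAU12, PAU17, PAU18 and PAU23, and they held 86.5% and 90.9% of the PAU reads in IAA, against 89.1% and 86.8% in DMSO. The 17 others, the shortened PAU7 and PAU9 among them, summed to 68.09 and 42.35 reads in IAA and 28.37 and 37.56 reads in DMSO, with at most 12.3 reads in 1 row and library. PAU9 and PAU16 had no read in any library. PAU9, at 129 bases, is shorter than the 217 to 231 bases by which FPKM lengths were shortened. None of its windows is unique, so its lack of reads says nothing about its level. For PAU16, with 28.9% of its windows unique, 3 counts per library would be 0.0921 to 0.111 CPM. These limits cover counting error only, and no difference in these 17 rows was tested.

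The PAU rows were also set apart by their distance from a chromosome end. Of the 5 PAU rows beyond 20 kb from a chromosome end, 4 were tested (PAU2, PAU5, PAU17 and PAU23, all with whole counts), against 3 of 19 within 20 kb (PAU6, PAU12 and PAU18, all with shared reads). The 5 distant rows summed to 6.36 and 6.11 CPM in IAA, against 3.55 and 3.74 CPM in DMSO (log2 fold change 0.77, SE 0.127, adjusted p = 0.00110). The 19 nearer rows summed to 9.34 and 8.23 CPM in IAA, against 6.11 and 6.18 CPM in DMSO (log2 fold change 0.51, SE 0.111, adjusted p = 0.00445). Both sums rose, and the difference between them was not tested.

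**Figure D3:**
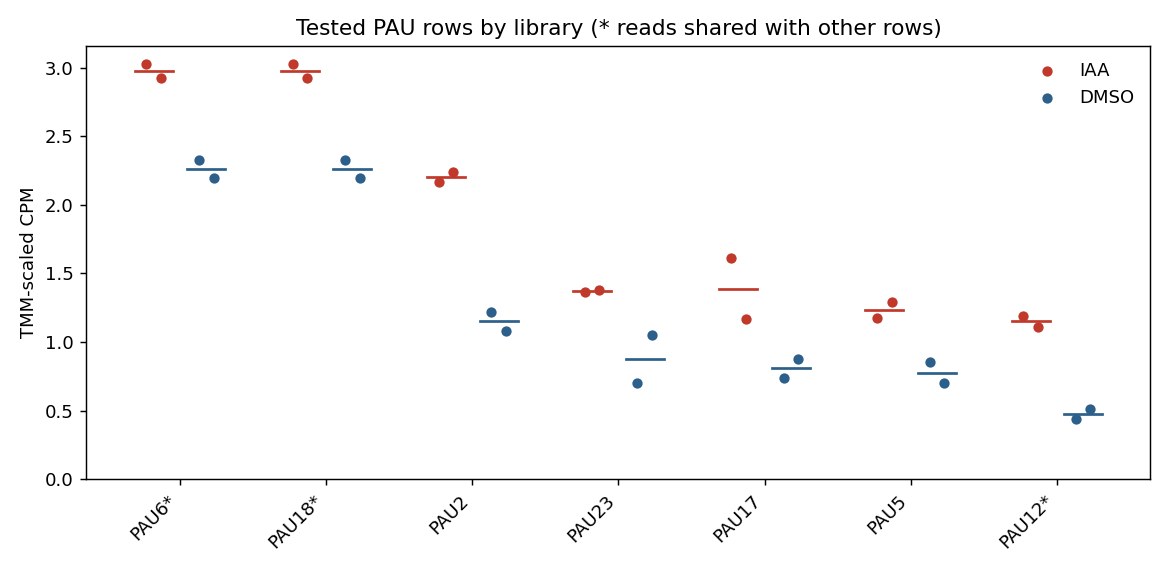
TMM-scaled CPM of the 7 tested PAU rows, ordered by their mean in DMSO (points are libraries, bars are means of 2 libraries, IAA left of DMSO, asterisks mark shared reads). In each of the 7 rows both IAA libraries lie above both DMSO libraries, as in PAU2 with 2.17 and 2.24 CPM in IAA and 1.22 and 1.08 CPM in DMSO. The same holds for 40.2% of all tested genes.

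Single PAU genes were near the limit of what these libraries could test. In all 7 tested rows both IAA libraries exceeded both DMSO libraries, against 40.2% of all tested genes. PAU6 and PAU18 hold equal parts of the same reads, so they are not separate cases. Of the 7 rows, 2 rose and 0 fell, near the 28.7% of all tested genes that rose. Their median log2 fold change was 0.67, and their mean levels were 0.813 to 2.62 CPM. Among all 162 tested genes in that range 66 rose and 10 fell, with a median of 0.53. Both IAA libraries lay above both DMSO libraries in 101 of the 162 and below them in 27. Low genes as a class were thus higher in IAA, and the part of this in the PAU values was not tested.

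PAU2 and PAU12 were the called rows, and their promoters are printed because they differ from that of PAU18. PAU2 (chrV:63728-64090, plus strand) rested on 70 and 73 reads in IAA and 33 and 31 reads in DMSO (2.17 and 2.24 CPM against 1.22 and 1.08 CPM; log2 fold change 0.94, SE 0.215, adjusted p = 0.00587). Without DMSO replicate 2 its adjusted p was 0.0508. PAU12 (chrVII:1080306-1080668, plus strand) rested on 38.46 and 36.15 reads in IAA and 11.82 and 14.65 reads in DMSO (1.19 and 1.11 CPM against 0.438 and 0.512 CPM; log2 fold change 1.23, SE 0.317, adjusted p = 0.0102). It lost its call when DMSO replicate 1 was dropped (adjusted p = 0.0931), when DMSO replicate 2 was dropped (adjusted p = 0.0576) and with DESeq2 (adjusted p = 0.0698). The end of PAU12 lies 915 bp from the end of COS6, which faces it on the opposite strand. The library kit marks strand, but the sources used here do not say if counts were made by strand.
PAU2 (chrV:63478-63777, plus strand): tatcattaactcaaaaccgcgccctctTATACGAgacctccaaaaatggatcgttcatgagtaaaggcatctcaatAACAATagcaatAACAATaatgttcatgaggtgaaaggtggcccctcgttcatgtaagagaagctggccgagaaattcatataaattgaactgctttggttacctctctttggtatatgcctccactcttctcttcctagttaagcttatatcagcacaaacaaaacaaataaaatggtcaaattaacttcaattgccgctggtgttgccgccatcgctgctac
PAU12 (chrVII:1080056-1080355, plus strand): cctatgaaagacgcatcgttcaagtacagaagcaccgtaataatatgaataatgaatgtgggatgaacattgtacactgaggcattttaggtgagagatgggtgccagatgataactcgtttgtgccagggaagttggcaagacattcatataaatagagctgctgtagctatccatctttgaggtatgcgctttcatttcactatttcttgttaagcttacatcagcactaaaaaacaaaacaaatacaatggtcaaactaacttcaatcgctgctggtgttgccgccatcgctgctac
The PAU2 promoter holds 1 TCGTATA and 2 ATTGTT, all on the strand opposite to the gene and so printed as their complements, and that of PAU12 holds none of the 3 motifs.

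PAU6 and PAU18, whose coding sequences are the same, received equal shares of their reads in every library. Each had 3.03 and 2.92 CPM in IAA, against 2.33 and 2.20 CPM in DMSO, and was not called alone (log2 fold change 0.39, SE 0.167, adjusted p = 0.0717). Summed, the pair had 6.06 and 5.85 CPM in IAA, against 4.66 and 4.39 CPM in DMSO, and rose 1.31-fold (log2 fold change 0.39, SE 0.122, adjusted p = 0.0231). The sum lost its call with library size scaling (adjusted p = 0.0649) and when IAA replicate 1 (adjusted p = 0.0598), DMSO replicate 1 (adjusted p = 0.0655) or DMSO replicate 2 (adjusted p = 0.133) was dropped.

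PAU17, PAU5 and PAU23, with whole counts, missed the threshold. PAU17 had 1.61 and 1.17 CPM in IAA, against 0.740 and 0.874 CPM in DMSO (log2 fold change 0.78, SE 0.297, adjusted p = 0.0505), and it was called when IAA replicate 2 was dropped (0.999, adjusted p = 0.0218). PAU5 had 1.18 and 1.29 CPM in IAA, against 0.851 and 0.699 CPM in DMSO (log2 fold change 0.67, SE 0.281, adjusted p = 0.0689). PAU23 had 1.36 and 1.38 CPM in IAA, against 0.703 and 1.05 CPM in DMSO (log2 fold change 0.64, SE 0.284, adjusted p = 0.0835), and its value was 0.39 without DMSO replicate 1 and 0.96 without DMSO replicate 2. These rows had 19 to 52 reads in a library, and their standard errors were larger than those of COS9 and COS10, which had at least 671 reads in a library. All 3 had both IAA libraries above both DMSO libraries, as 40.2% of all tested genes did.

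**Figure D4:**
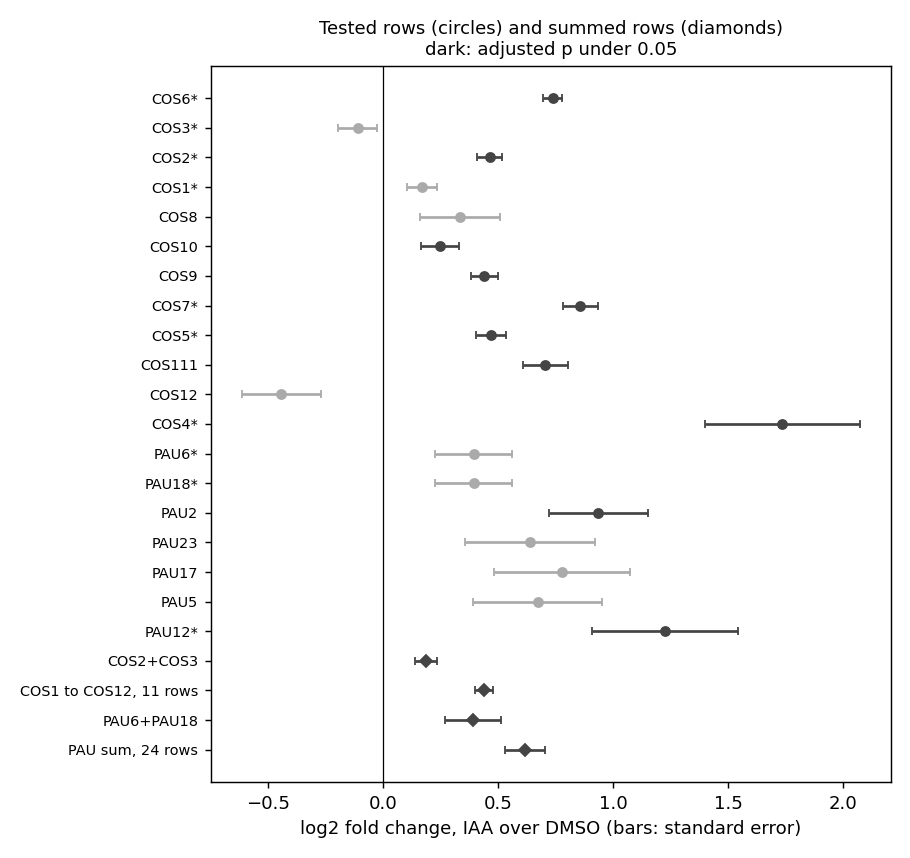
Log2 fold change, IAA over DMSO, with its standard error for the 19 tested rows (circles) and for 4 sums of rows (diamonds); dark symbols passed an adjusted p of 0.05. COS2 at 0.46 and COS3 at -0.11 stand on either side of their sum at 0.19, and PAU rows have wider errors than their family sum at 0.62.

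Genes that surround or relate to the families are read against all tested genes, of which 28.7% rose and 29.6% fell. Of 17 tested genes nearest to the 11 COS genes on either side, 5 rose and 1 fell, with a median log2 fold change of 0.10. The share that rose was at the background, and the share that fell was below it. Of 13 nearest to the tested PAU rows 5 rose and 2 fell, with a median of 0.09. Of 99 other tested genes within 20 kb of an end with whole counts, 36 rose (36.4%) and 10 fell, with a median of 0.13. In these last 2 groups more genes rose and fewer fell than in the background, and no such difference was tested. In the DUP240 family, membrane proteins related to the COS proteins, 2 of 10 rose and 5 fell (median -0.25), with 58.3% of all tested genes called in either direction. YAR023C (log2 fold change 0.66, SE 0.132, adjusted p = 0.00307) and YCR007C (0.44, SE 0.103, adjusted p = 0.00643) rose, and the pheromone-regulated PRM8 fell (-0.30, SE 0.0714, adjusted p = 0.00681).

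Of 18 tested genes of ubiquitin-dependent endosomal sorting, the step in which Cos proteins act, 1 rose and 6 fell (median -0.06), against 28.7% that rose and 29.6% that fell over all tested genes. SNF7, the main filament subunit of ESCRT-III, had 87.3 and 86.7 CPM in IAA, against 126 and 129 CPM in DMSO (log2 fold change -0.55, SE 0.0435, adjusted p = 4.30e-05). VPS24, another ESCRT-III subunit, fell by 0.45 (SE 0.0561, adjusted p = 3.00e-04), and VPS28 of ESCRT-I by 0.38 (SE 0.0677, adjusted p = 0.00178), both on the log2 scale. The count of genes that fell is near that background.

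Among the relatives of the PAU genes, 2 of 6 DAN and TIR genes rose and 0 fell (median 0.02), near the 28.7% of all tested genes that rose. TIR4, a cell wall mannoprotein, had 25.2 and 30.1 CPM in IAA, against 21.95 and 20.3 CPM in DMSO (log2 fold change 0.39, SE 0.0926, adjusted p = 0.00720). DAN1, a mannoprotein of anaerobic cells, rose at a low level, with 1.89 and 1.93 CPM in IAA against 1.37 and 0.664 CPM in DMSO (log2 fold change 0.92, SE 0.311, adjusted p = 0.0320). TIR2 was not called (log2 fold change -0.30, SE 0.133, adjusted p = 0.0801). Of 9 other genes induced at low oxygen, 5 rose and 1 fell (median 0.31), against the same 28.7%. Those that rose included the fatty acid desaturase gene OLE1 (log2 fold change 0.31, SE 0.0559, adjusted p = 0.00171) and the sterol importer genes PDR11 (0.31, SE 0.0623, adjusted p = 0.00313) and AUS1 (0.34, SE 0.0693, adjusted p = 0.00351). The gene that fell was HEM13 (-0.23, SE 0.0660, adjusted p = 0.0152), and CYC7, COX5B and AAC3 were not called.

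Of 8 transcription factors and corepressors that act on PAU, DAN, TIR and hypoxic genes, 0 rose and 5 fell (median -0.25), with 29.6% of all tested genes falling. ROX1, the repressor of hypoxic genes, had 129 and 121 CPM in IAA, against 225 and 234 CPM in DMSO, 1.84-fold lower in IAA (log2 fold change -0.88, SE 0.0493, adjusted p = 1.24e-05). MOT3, which represses DAN and TIR genes with ROX1, had 67.5 and 71.8 CPM in IAA, against 95.9 and 104 CPM in DMSO (log2 fold change -0.52, SE 0.0572, adjusted p = 1.61e-04). TUP1, the corepressor, had 304 and 305 CPM in IAA, against 379 and 401 CPM in DMSO (log2 fold change -0.36, SE 0.0439, adjusted p = 2.70e-04). ECM22 and the corepressor gene CYC8 were the other genes that fell, and UPC2, the activator of PAU, DAN and TIR genes, was not called (log2 fold change 0.09, SE 0.0694, adjusted p = 0.280). Whether these falls bear on the PAU values was not tested.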

How the data were processed

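RNA was sequenced in 4 libraries of the ESS1-AID strain, 2 given IAA and 2 given DMSO, grouped by the labels. Libraries were made from total RNA with a directional kit, per the labels' protocols. The submitters' processing notes list RSEM 1.3.3 and STAR 2.7.10a among other tools, and build R64, without saying what each did. The authors deposited estimated counts per gene, which need not be whole, and FPKM values. FPKM in the deposited table imply a gene length shortened by about 217 to 231 bases (median by library, more in IAA), which raises short PAU genes in FPKM relative to CPM.

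Estimated counts were rounded and tested in R 4.3.3 with edgeR 4.0.16 (filterByExpr, TMM, glmQLFit and glmQLFTest, IAA against DMSO without covariates), and p-values were adjusted by Benjamini-Hochberg over all tested rows (threshold 0.05). The standard error is the log2 fold change divided by the square root of F. For sums, the rows were replaced by 1 row and the whole table was refitted. Counts were taken as whole at a tolerance of 0. edgeR was also run on simulated counts for this comparison, with 5800 genes tested and 50 altered at each fold. It recovered 44% of simulated 1.2-fold changes, 94% at 1.5-fold and 100% at 2-fold and 4-fold. Of its 180 calls, 11 were false. The real data differ, with 3380 genes called. The simulation altered only genes expected to have at least 50 reads in the smallest library, and it gave every gene the same dispersion. PAU17, PAU5 and PAU23, at 1.71-, 1.59- and 1.56-fold, had 19 to 52 reads in a library and were not called. These rates therefore cannot be applied to PAU rows with few reads. Coding sequences, promoters and windows of 100 bases came from the R64 genome, and 6456 of 6459 rows were found in its annotation. Libraries of a group differed beyond sampling error (chi-square over its degrees of freedom 19.5 for IAA, 6.40 for DMSO), so each counted as 1 sample.

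Every COS and PAU row was accounted for, with values by library for tested rows, and up to 3 genes with the lowest adjusted p were named from each related list. HEM13, CYC7, COX5B, AAC3, ECM22, CYC8 and UPC2 were named besides these. The members and lists were chosen with earlier results of these data known. Alternatives were other scalings, filters, DESeq2 1.42.0, limma 3.58.1 with voom or on log2(FPKM + 1) and log2(FPKM + 0.1), unrounded counts, the replicate number as a block and each library left out. The sums of linked or identical rows, of rows by distance from the end, and without COS6 were chosen after seeing the data.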

Additional observations from a re-analysis of the deposited data

How the results depend on the processing

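The COS sum and the PAU sum stayed higher in IAA and past the threshold in all 20 and 17 alternatives run. Their log2 fold changes ranged from 0.31 to 0.47 and from 0.51 to 0.75. Some of these alternatives summed only a part of a family's rows, as did those with the lowest COS and the highest PAU value. COS1 to COS7 were summed under 2 names, as linked rows and as rows with shared reads. With all rows of a family summed, the ranges were 0.35 to 0.47 and 0.51 to 0.69. Library size scaling moved the median of all tested genes to -0.11, and under it the sums were 0.35 and 0.51. The number of called PAU rows was less stable: 2 rose with the chosen settings, 1 with DESeq2 (22 rows tested), 7 with limma on log2(FPKM + 1) and 7 on log2(FPKM + 0.1), and 0 to 3 with a library left out, the lowest without DMSO replicate 2. The cause was not tested. COS4 stayed called at a log2 difference of 0.84 on log2(FPKM + 1), where the pseudocount shrinks low genes. The lone library that such a fit leaves in a group is assumed to vary like those of the other group. COS3, never called higher, ranged from -0.23 without DMSO replicate 2 to 0.025 without DMSO replicate 1. The replicate block called 3708 genes, against 3380 without it, and it called 10 COS rows and 3 PAU rows higher, COS1, COS8 and PAU17 newly so. It also called COS12 lower (-0.44, adjusted p = 0.0487). The COS sum was 0.45 and the PAU sum 0.62. The numbers are not known to mark pairs, and deviations of same-numbered libraries correlated at 0.23 over all tested genes. PAU rows with few reads and identical copies limit what can be said of single genes.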
